A study of Mus musculus with 2 samples.

Results

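Lsamp, Tmem229a and Cyp2e1 were among the genes with the steepest gains in ureters of E14.5 mouse embryos labelled Tbx2/Tbx3cDKO, relative to control ureters. They were described together with the related genes Negr1, Ntm, Opcml and Tmem229b. Every non-control probe that the RefSeq annotation used here assigns to 1 of these 7 genes, and that was present on both arrays, was taken. This gave 12 probes, 4 for the 3 steep gains and 8 for the 4 relatives, of 39396 probes for 32081 genes and unnamed transcripts. A probe whose accession that annotation did not list kept the name in the file, so a further probe of a member gene may be left out. Lsamp, Tmem229a and Cyp2e1 were chosen because of their rise in this same contrast, so their values are a description and carry no test. The relatives were chosen by family.

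The labelled knockout embryos were Tbx18(cre/+), with both alleles floxed for Tbx2(fl/fl) and likewise for Tbx3(fl/fl). The controls were Tbx18(+/+), with Tbx2(fl/?) and with Tbx3(fl/?), in which 1 allele of each of these genes is not specified. All were of the NMRI strain. Cre recombinase from the Tbx18 locus acts in the progenitors of the ureteric mesenchyme and not in the epithelium, so the deletion concerns only some of the cells in a whole ureter, and the labelled knockout embryos also carry 1 altered Tbx18 allele. There were 2 two-colour arrays, each with 1 labelled knockout and 1 control RNA. On the first array both RNAs were female and the knockout RNA carried AlexaFluor647; on the second both were male and the dyes were swapped, so the sex of a pair and its dyes cannot be told apart. The sources used here do not say whether RNA of several embryos was pooled. The small number of arrays, n = 2 pairs, limits the precision of every value.

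LSAMP is a limbic-system-associated membrane protein and a founding member of the IgLON family. IgLONs are small adhesion proteins built of immunoglobulin domains and held on the outer cell surface by a lipid (GPI) anchor. They bind each other on neighbouring neurons and guide neurite outgrowth. NEGR1, NTM (neurotrimin), OPCML and IGLON5 are the other members. CYP2E1 is a cytochrome P450 of the endoplasmic reticulum, best known from hepatocytes, where it oxidises ethanol and other small molecules with electrons from P450 reductase. TMEM229A and TMEM229B are multi-pass membrane proteins about which little is known. TBX2 and TBX3, the targeted factors, are T-box transcription factors that mostly repress their targets and bind variants of the half-site GGTGTGA.

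The sequence just upstream of each steep gain is shown because the contrast concerns T-box factors. Each stretch is the 250 bases before the RefSeq start in build GRCm38.p6, 5′ to 3′ on the gene's strand, with any match to GTGTGA or GGTGTGA on either strand in capitals. Matches to the longer motif hold the shorter one inside them.
Lsamp, start 1, chr16:39984114-39984363, plus strand: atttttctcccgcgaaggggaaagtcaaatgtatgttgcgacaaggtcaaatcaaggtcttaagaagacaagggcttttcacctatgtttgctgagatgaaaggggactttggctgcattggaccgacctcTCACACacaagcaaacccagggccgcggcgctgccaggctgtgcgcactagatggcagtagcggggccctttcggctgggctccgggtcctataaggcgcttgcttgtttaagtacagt
Tmem229a, chr6:24956126-24956375, minus strand: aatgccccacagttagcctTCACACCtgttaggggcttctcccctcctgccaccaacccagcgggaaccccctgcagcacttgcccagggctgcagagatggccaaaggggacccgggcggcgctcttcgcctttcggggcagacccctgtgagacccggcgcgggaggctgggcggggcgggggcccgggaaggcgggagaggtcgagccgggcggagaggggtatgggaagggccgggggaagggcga
Cyp2e1, chr7:140763569-140763818, plus strand: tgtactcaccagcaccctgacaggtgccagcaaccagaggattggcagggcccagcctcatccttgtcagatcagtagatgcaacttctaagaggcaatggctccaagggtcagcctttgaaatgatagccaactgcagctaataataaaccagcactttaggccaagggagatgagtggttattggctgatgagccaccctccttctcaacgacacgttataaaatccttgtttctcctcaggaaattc
The Tmem229a stretch held 1 match to the longer motif, read as TCACACC on the printed strand and beginning 231 bases before the start. The Lsamp stretch held 1 match to the shorter motif, read as TCACAC and beginning 119 bases before the start. The second RefSeq start of Lsamp (chr16:41532576-41532825, plus strand) and the Cyp2e1 stretch held neither. Over the 32851 mouse promoters of the same length, 3.33% held GGTGTGA and 12.3% held GTGTGA on either strand. A match describes the letters only. The GC content was 71.2% for Tmem229a, which is at or above that of 92.7% of promoters, against a median of 52.4% over all of them. It was 53.2% for the first Lsamp start, 56.4% for the second and 48.8% for Cyp2e1.

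The arrays were first checked against their labels. Tbx3 fell, at -1.09 ± 0.10 on the log2 scale (SD over 2 pairs, adjusted p = 0.000862), whereas Tbx2 rose, at 0.86 ± 0.12 (adjusted p = 0.00236). The Tbx2 transcript thus goes against the label, and the sources used here do not place these probes relative to the deleted part of each gene, outside which a probe checks nothing. Directions are therefore those of ureters labelled knockout. All 12 urothelium markers and all 8 ureteric mesenchyme markers were well above background in both RNAs on both arrays. Of 8 smooth muscle markers 6 fell, against 1.81% of all genes tested, and 2 did not pass. The list median was -2.83, and the part of the muscle difference in the gains below was not tested. Of spots, 66.8% and 71.5% were well above background in the labelled knockout channel, against 70.8% and 64.3% in the control channel, and 0 were saturated. In whole tissue, more cells of a type and more RNA per cell cannot be told apart.

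Lsamp was brighter in the labelled knockout RNA on both arrays. Its 1 probe named through RefSeq, assigned by a predicted transcript, had log2 levels of 11.83 (female) and 11.92 (male) in the labelled knockout ureters. The control levels were 10.13 and 10.18. All Lsamp values rest on this probe, and a further Lsamp probe may be among those whose accession the annotation did not list. Levels here and below are after background correction, loess within each array and quantile normalization of mean log2 intensity between the arrays. Both knockout levels lay above both control levels. Before any normalization, the median spot intensity was 3870 and 3580 in the knockout channel, against 990.5 and 1105 in the control channel, over local backgrounds between 31 and 113.5. The lowest of the 4 knockout spots was brighter than the highest control spot on each array. The log2 ratio was 1.70 for the female pair and 1.74 for the male one, a mean of 1.72 ± 0.024 (SD, n = 2 pairs), which is 3.30-fold. This mean had rank 14 among the 20629 genes tested.

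Tmem229a had the largest gain of the 7 genes. Its 1 probe had log2 levels of 11.56 and 11.59 in the labelled knockout ureters, against 9.12 and 9.44 in the control ureters. The knockout levels of the 2 pairs differed little and the control level was lower in the female pair. The median spot intensity was 3385 and 3025 in the knockout channel, against 498 and 725 in the control channel. The log2 ratios were 2.44 and 2.15, with a mean of 2.29 ± 0.21 (SD, n = 2 pairs), or 4.90-fold. That is 5.42-fold for the female and 4.43-fold for the male pair, and rank 3 among the genes tested.

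Cyp2e1 was measured by 2 probes. The brighter probe had log2 levels of 9.34 and 9.39 in the labelled knockout ureters, against 7.74 and 7.78 in the control ureters. The dimmer probe had 8.45 and 8.65 in the labelled knockout ureters, against 6.82 and 6.80 in the control ureters. The control RNA was well above background for the dimmer probe on only 1 of 2 arrays, the female one. Both probes put the labelled knockout ureters above the control ureters in both pairs. For the brighter probe, the median spot intensity was 771 and 625 in the knockout channel over local backgrounds of 115 and 34.5, against 178.5 and 234.5 in the control channel over local backgrounds of 34 and 109. The brighter probe had log2 ratios of 1.60 and 1.61, with a mean of 1.60 ± 0.0042 (SD, n = 2 pairs), or 3.04-fold and rank 19. The dimmer probe had 1.63 and 1.85, with a mean of 1.74 ± 0.16, or 3.34-fold.

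The size of the Cyp2e1 gain differed between ways of making the ratio. With the scanner software's processed signals it was 2.09 on the log2 scale, or 4.26-fold. In the authors' deposited table it was 2.21, or 4.62-fold. Over all alternatives run, Lsamp stayed between 1.70 and 1.82, and Tmem229a between 2.15 and 2.45.

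**Figure D1:**
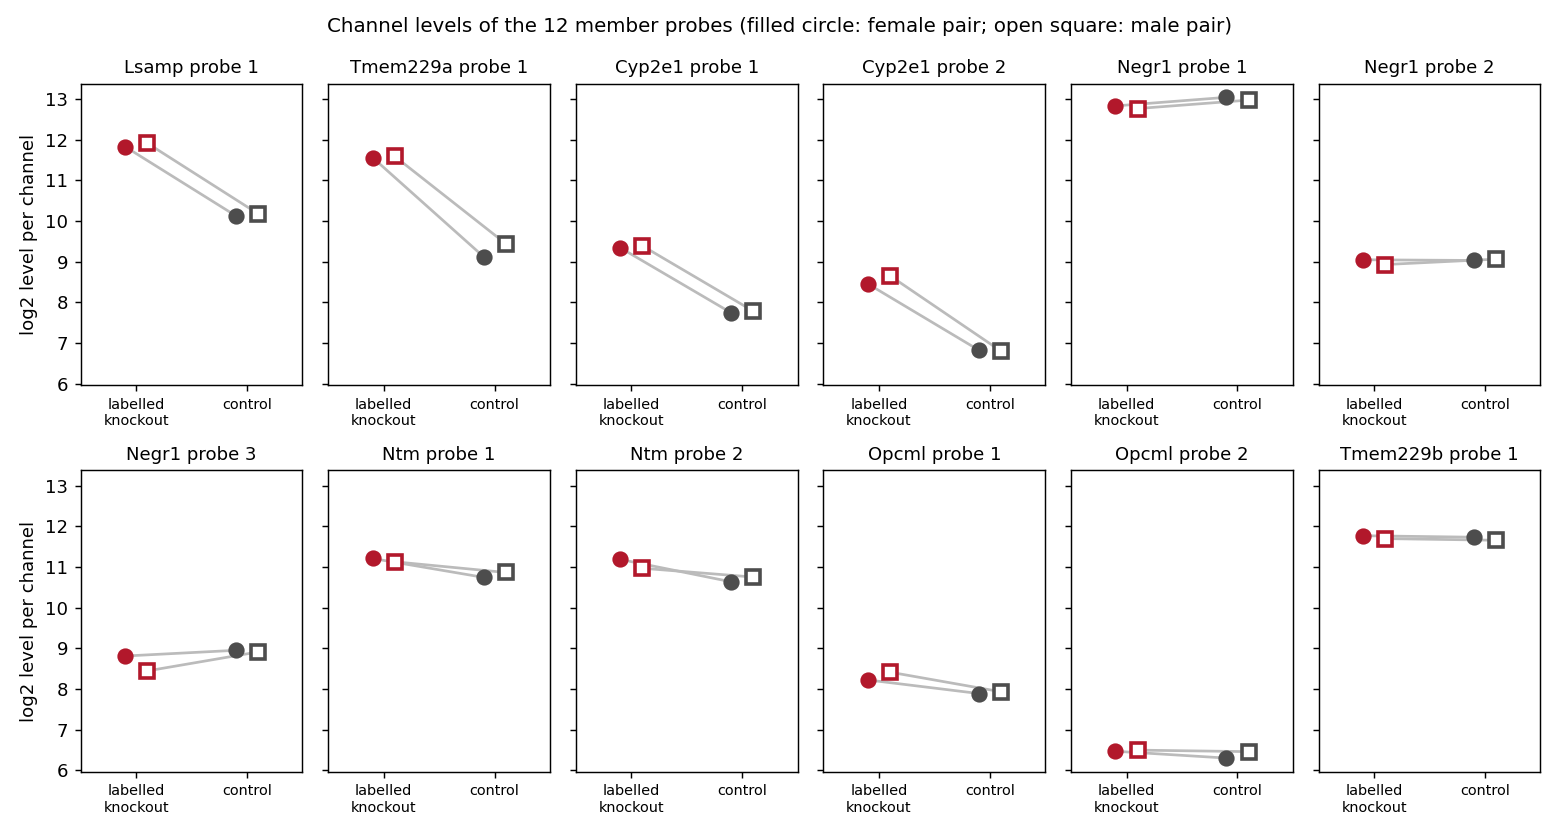
Log2 level of each of the 12 probes in the labelled knockout (red, left) and control (dark grey, right) channel, 1 panel per probe, with the female pair as filled circles and the male pair as open squares, joined within a pair. Levels of Lsamp, Tmem229a and both Cyp2e1 probes are higher in the labelled knockout in both pairs, and those of Tmem229b differ by 0.036 and 0.040; levels are not comparable between probes.

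Spots of 1 probe repeat the same hybridisation and are not replicates of the ureters, but they show the measurement error on each array. The 4 spots of Lsamp lay between 1.68 and 1.73 on the female and between 1.72 and 1.76 on the male array. Those of Tmem229a lay between 2.40 and 2.48 on the female and between 2.11 and 2.19 on the male array, so the 2 pairs did not overlap. The brighter Cyp2e1 probe ranged from 1.49 to 1.66 on the female and from 1.28 to 1.72 on the male array, a wider spread than for Lsamp and Tmem229a. The very small SD between the pairs for Cyp2e1, 0.0042, is therefore far below the scatter of its own spots, whose SD was 0.076 and 0.22.

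**Figure D2:**
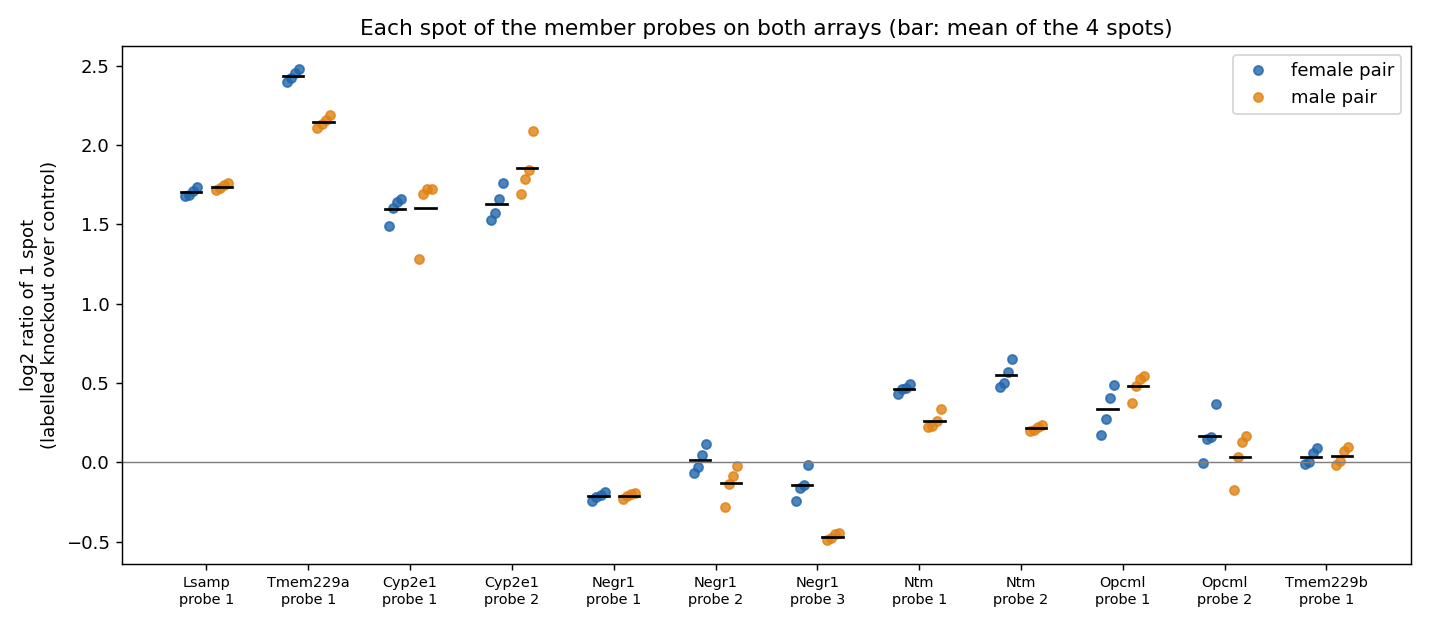
Log2 ratio (labelled knockout over control) of each of the 4 spots of every probe, for the female (blue) and male (orange) pair, with a bar at the mean of the spots. The lowest spot of the 4 steep-gain probes is at 1.28, and the highest spot of the relatives is at 0.65.

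The IgLON relatives showed much smaller differences, in both directions. Negr1, an adhesion protein of growing neurons, was covered by 3 probes. The brightest Negr1 probe had log2 levels of 12.83 and 12.77 in the labelled knockout ureters, against 13.04 and 12.97 in the control ureters. The log2 fold change of -0.21 ± 0.0022 (SD, n = 2 pairs) missed the threshold (adjusted p = 0.192). A second Negr1 probe gave 0.017 (female pair) and -0.13 (male pair), a mean of -0.058 ± 0.11. The remaining probe gave -0.14 and -0.47, a mean of -0.30 ± 0.23, and in a fit over all probes neither passed (adjusted p = 0.896 and 0.175). That fit called 3.8% of all probes.

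Ntm, neurotrimin, was brighter in the labelled knockout ureters with both of its probes but did not pass. The brighter Ntm probe had log2 levels of 11.21 and 11.13 in the labelled knockout ureters, against 10.75 and 10.87 in the control ureters. The mean log2 fold change was 0.36 ± 0.14 (SD, n = 2 pairs, adjusted p = 0.0649), or 1.29-fold. The other Ntm probe gave 0.38 ± 0.24 (adjusted p = 0.0931 over all probes). The adjusted p of the brighter probe fell to 0.0442 without background subtraction and to 0.0354 without a filter on dim probes.

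Opcml, an opioid-binding cell adhesion protein by its name, rose. Its brighter probe had log2 levels of 8.22 and 8.42 in the labelled knockout ureters, against 7.89 and 7.93 in the control ureters. The log2 fold change was 0.41 ± 0.10 (SD, n = 2 pairs, adjusted p = 0.0358), or 1.33-fold. Its second probe was not well above background in either RNA on either array, so no fold is given for it. Opcml was the 1 relative of 4 that passed, against 3.68% of all genes tested, of which 1.87% were higher and 1.81% lower. That call ended with the processed signals (adjusted p = 0.0655), with median centring in place of loess (adjusted p = 0.216) and with the authors' deposited table (adjusted p = 0.0950).

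Iglon5, the remaining family member, had log2 levels of 11.60 and 11.47 in the labelled knockout ureters, against 11.80 and 11.73 in the control ureters. The value of -0.24 ± 0.045 on the log2 scale (SD, n = 2 pairs) did not pass (adjusted p = 0.151). Leaving Lsamp out, the 4 family members had a median log2 fold change of 0.077, against -0.0021 over all genes tested. Their 4 unadjusted p-values were under 0.05, with Ntm and Opcml above 0 and Negr1 and Iglon5 below 0. The share of all genes tested under that unadjusted threshold was not taken. This count, and the unadjusted counts of other lists below, thus have no background beside them.

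Tmem229b, the only other TMEM229 gene measured, differed little between the RNAs in either pair. Its log2 levels were 11.77 and 11.70 in the labelled knockout ureters, against 11.74 and 11.66 in the control ureters. The log2 fold change was 0.038 ± 0.0028 (SD, n = 2 pairs) and did not pass (adjusted p = 0.936). Over the alternatives it stayed between 0.025 and 0.073.

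**Figure D3:**
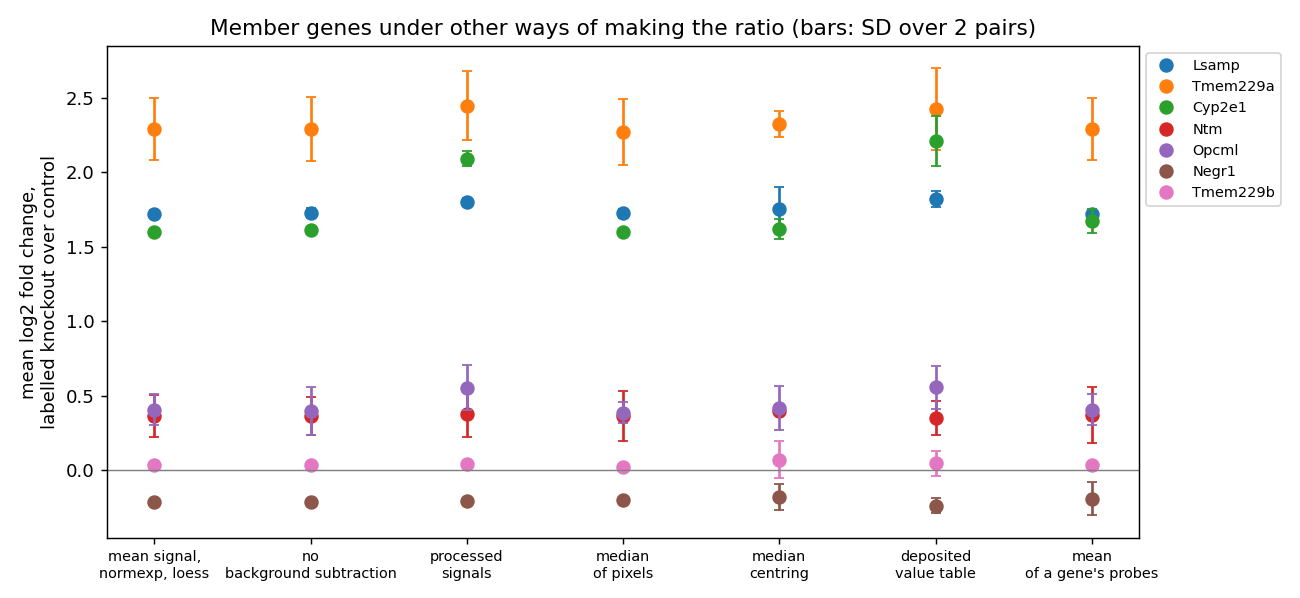
Mean log2 fold change of the 7 genes (points, with SD over 2 pairs as bars) under 7 ways of making the ratio, from the values reported (left) to the mean of a gene's probes (right). Lsamp and Tmem229a move little, Cyp2e1 lies at 1.60 with the first and at 2.09 and 2.21 with the processed signals and the authors' deposited table, and no gene changes sign.

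Other neural adhesion proteins with immunoglobulin domains moved in both directions. Of 22 such genes, 16 passed the filter on dim probes, 3 rose, 3 fell and 10 did not pass, with a median of 0.028. Over all genes tested 1.87% rose and 1.81% fell. Cntn1, a contactin of axons and glia, rose by 0.52 ± 0.097 on the log2 scale (SD, n = 2 pairs, adjusted p = 0.0141). Thy1, at 0.40 (adjusted p = 0.0365), and Cadm3, at 0.39 (adjusted p = 0.0364), were the other 2 that rose, and were named after their values were seen. Cntn6, a contactin, was at -0.77 ± 0.13 (adjusted p = 0.00411), the neural cell adhesion molecule Ncam1 at -0.61 ± 0.17 (adjusted p = 0.0127) and the contactin Cntn4 at -0.56 ± 0.046 (adjusted p = 0.00888). With median centring in place of loess, 0 of the 16 rose and 0 fell. A dimmer Ncam1 probe gave -0.13 and did not pass.

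The other CYP2 genes had values near 0. Of 42 other CYP2 genes on the array, 26 did not pass the filter on dim probes. Of the 16 tested with limma, 0 rose and 0 fell, against 3.68% called over all genes, so a count of 0 does not set these 16 apart. Of them 0 had an unadjusted p under 0.05, and 0 were called with robust eBayes. Their log2 fold changes ran from -0.11 for Cyp2r1, a vitamin D 25-hydroxylase, to 0.092 for Cyp2d26, with a median of 0.010. CYP2 genes are similar in sequence, and the sources used here do not say whether a probe binds more than 1 of them.

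The partners and pathways of CYP2E1 were also close to 0. Of 9 P450 electron partners and regulators tested, 0 passed (1 at an unadjusted p under 0.05, 0 with robust eBayes). The aryl hydrocarbon receptor Ahr was at -0.19. Of 8 genes of ethanol and aldehyde oxidation, 0 passed (2 at an unadjusted p under 0.05, 0 with robust eBayes), with alcohol dehydrogenase Adh1 at 0.23 and mitochondrial aldehyde dehydrogenase Aldh2 at 0.19. Of 7 genes of the oxidative stress response, 0 passed (0 at an unadjusted p under 0.05, 0 with robust eBayes), with Gclc, which makes glutathione's precursor, at 0.14 and the quinone reductase Nqo1 at -0.13. Over all genes tested 3.68% were called, so counts of 0 do not set these lists apart. The medians of these lists were -0.0025, 0.065 and 0.027.

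Markers of cell types in which the steep gains are known were measured in the same RNAs. Hepatocyte markers, for Cyp2e1, had summed normalized intensities of 9422 and 8772 in the labelled knockout ureters, against 9172 and 8869 in the control ureters. Of 12 of them, 7 were well above background in both RNAs on both arrays, while Apoa1, Fgb and Fga were so in none. Of the 7 tested, 2 fell and 0 rose, against 1.81% lower and 1.87% higher over all genes, and Trf, Serpina1a and Apoa2, named after their values were seen, were at 0.12, 0.067 and 0.021 without passing. Alpha-fetoprotein (Afp) was at -0.75 ± 0.046 (SD, n = 2 pairs, adjusted p = 0.00283) and albumin (Alb) at -0.68 ± 0.13 (adjusted p = 0.00692), although the Alb call ended with the authors' deposited table.

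CYP2E1 is also found in fat and kidney. Adipocyte markers summed to 26488 and 24987 in the labelled knockout ureters, against 29016 and 28760 in the control ureters, and Adipoq, Cidec and Lep were not well above background in any channel. Of the 4 tested with limma, 0 passed (1 at an unadjusted p under 0.05, 0 with robust eBayes), with Fabp4 at -0.24 and Pparg at -0.11. Kidney tubule markers summed to 7882 and 7626 in the labelled knockout ureters, against 6990 and 6926 in the control ureters, with Slc12a1 and Umod not well above background. Of the 4 tested with limma, 0 passed (1 at an unadjusted p under 0.05, 0 with robust eBayes), with Pax8 at 0.23 and Cubn at 0.16. With 3.68% called over all genes tested, counts of 0 do not set the adipocyte or kidney tubule markers apart. The part of these cells in the Cyp2e1 difference was not tested.

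Neuron and glia markers, for Lsamp and its relatives, were all well above background. The 12 genes summed to 61702 and 58669 in the labelled knockout ureters, against 58073 and 57864 in the control ureters. Of these 3 rose, 0 fell and 9 did not pass, against 1.87% higher and 1.81% lower over all genes tested, and their median was 0.20. Fabp7, a lipid carrier of glia, was at 0.71 (adjusted p = 0.00321). Prph, an intermediate filament of peripheral neurons, was at 0.69 (adjusted p = 0.00448), and Dbh, which makes noradrenaline, was at 0.62 ± 0.32 (adjusted p = 0.0404). The Dbh call ended under 5 alternatives. Lsamp, at 1.72, was chosen for its rise, so its size cannot be weighed against these gains. The part of neurons and glia in the Lsamp difference was not tested. Of 12 urothelium markers, 0 passed, against 3.68% called over all genes tested, and 0 were called with robust eBayes. In the limma fit 4 had an unadjusted p under 0.05, a count with no background share beside it. Upk1b was at -0.29 and Upk3a at 0.27. The urothelium markers summed to 210289 and 212547 in the labelled knockout ureters, against 236674 and 221947 in the control ureters.

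**Figure D4:**
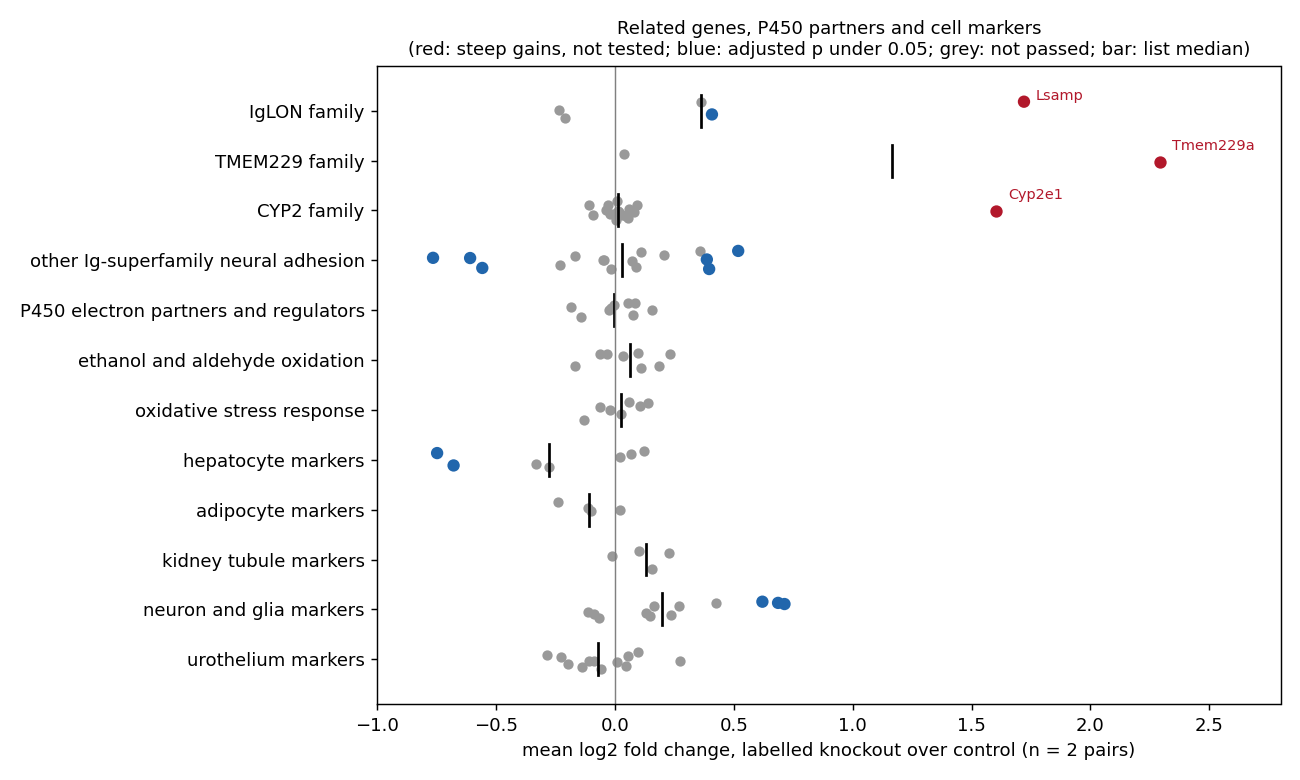
Mean log2 fold change of each gene tested, by list; red points are Lsamp, Tmem229a and Cyp2e1, blue points passed at an adjusted p under 0.05 and bars are list medians with the red points counted. The CYP2 genes other than Cyp2e1 lie between -0.11 and 0.092, and 2 hepatocyte markers lie below -0.6.

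The genes whose pair of log2 fold changes (female and male) lay nearest to each steep gain were found as a description, over 2 pairs. For Lsamp these were the GABA receptor subunit Gabra2, at 1.72 and a distance of 0.0178, the guanylate-binding protein Gbp2, at 1.70 and 0.139, and the major urinary protein Mup19, at 1.65 and 0.167. For Tmem229a they were Mup1, at 2.48 and a distance of 0.397, the cytochrome c oxidase subunit Cox8b, at 1.87 and 0.599, and Mup18, at 1.79 and 0.712. For Cyp2e1 they were Sprn, which encodes the prion-like protein shadoo, at 1.60 and 0.119, Mup19, at 0.129, and the small GTPase Diras2, at 1.54 and 0.156. Tmem229a had 2 genes above it by mean, and its 3 distances were the largest of the 9. In the control RNA, Mup1 and Mup18 were well above background on 1 of 2 arrays, and under the alternatives Mup1 reached 4.06, Mup18 3.35 and Mup19 2.45. The distances hold for the main way of making the ratio only. With the processed signals Gabra2 was at 2.17 and Lsamp at 1.80, and with the authors' deposited table at 2.17 and 1.82. Cyp2e1 was at 2.09 and 2.21 under these 2 settings, whereas Sprn did not exceed 1.68 nor Diras2 1.65 under any alternative. By size alone, 43 genes, or 0.208% of those tested, were at least 2-fold higher on both arrays, Lsamp, Tmem229a and Cyp2e1 among them.

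Sprn and Cox8b are also neighbours of Cyp2e1 on chromosome 7. Of the 3 nearest tested genes on each side of each steep gain, 1 of 6 passed for Lsamp, 2 of 6 for Tmem229a and 1 of 6 for Cyp2e1, against 3.68% of all genes tested. Next to Lsamp on chromosome 16, Igsf11 was at -0.26 and Gap43 at 0.23, neither of which passed, and the zinc finger gene Zbtb20 fell, at -0.42 ± 0.12 (SD, n = 2 pairs, adjusted p = 0.0363). Next to Tmem229a on chromosome 6, Wasl, an activator of actin assembly, rose, at 0.37 ± 0.013 (adjusted p = 0.0345), and the receptor Gpr37 rose, at 0.52 ± 0.079 (adjusted p = 0.0132). Next to Cyp2e1, Olfr538 was at 0.016 and Syce1 at 0.13, and Urah, an enzyme of urate breakdown, rose, at 0.45 ± 0.071 (adjusted p = 0.0202). The calls of Zbtb20, Wasl and Urah each ended with the processed signals, with median centring and with the authors' deposited table, and that of Gpr37 with median centring. A dimmer Wasl probe gave 0.16.

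A wider window of 10 tested genes on each side was taken after these values were seen. Of 20 genes around Lsamp, 0 rose and 1 fell, with a median of -0.026. Of 20 around Tmem229a, 4 rose and 0 fell, with a median of 0.054, and the 2 not yet named were Ptprz1, at 0.42, and Lrrc4, at 0.56, whose calls ended with median centring and with the authors' deposited table, and for Ptprz1 also with the processed signals. Of 20 around Cyp2e1, 4 rose and 0 fell, with a median of 0.15. The share of called genes was 5% around Lsamp and 20% around each of the other 2, against 3.68% of all genes tested. The rises of Sprn and Cox8b were known before the window was set, and Cox8b is its last gene on 1 side. The share around Cyp2e1 is therefore a description only.

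The rises around Cyp2e1 were large. Sprn, 5 tested genes away, was at 1.68 (female pair) and 1.52 (male pair), a mean of 1.60 ± 0.11 (SD, n = 2 pairs, adjusted p = 0.000244). Scgb1c1, a secretoglobin gene 4 tested genes away on the other side, was at 1.22 and 1.13, a mean of 1.17 ± 0.065 (adjusted p = 0.000558). Cox8b, 10 tested genes away on that same side, was at 1.96 and 1.79, a mean of 1.87 ± 0.12 (adjusted p = 0.000158). Of the other tested genes between Sprn and Cox8b, Urah rose, and those that did not pass ran from -0.045 for the olfactory receptor gene Olfr531 to 0.30 for Zfp941 and Odf3. In the control RNA, Scgb1c1 was well above background on 1 of 2 arrays, and its value reached 2.27 under the alternatives. Sprn stayed between 1.52 and 1.68 and Cox8b between 1.79 and 1.96 over the alternatives, whereas Cyp2e1 reached 2.21. Scgb1c1, Odf3, Ptprz1 and Lrrc4 were named after their values were seen. No test of the clustering was made and its cause was not tested.

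**Figure D5:**
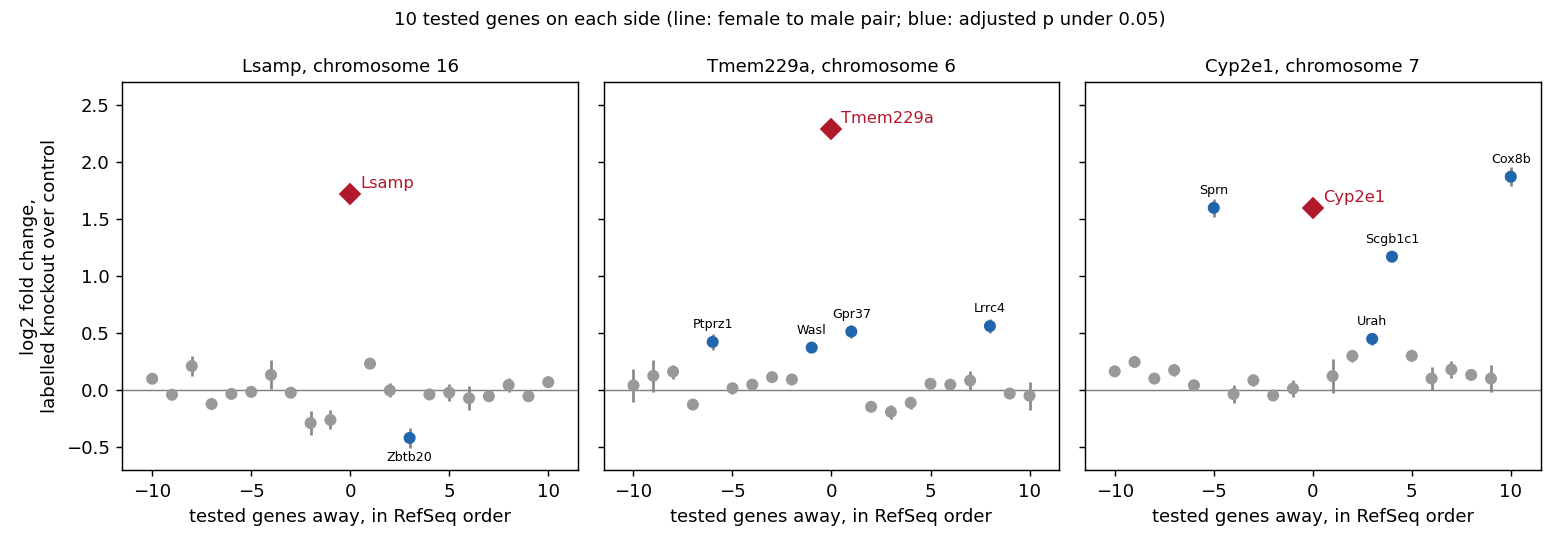
Log2 fold change (labelled knockout over control) of the 10 tested genes on each side of Lsamp, Tmem229a and Cyp2e1 (red diamonds, not tested), in RefSeq order, with a line from the female to the male value; blue points passed at an adjusted p under 0.05. Around Cyp2e1, at 1.60 with the main way of making the ratio shown here, Sprn is at 1.60 and Cox8b at 1.87. The highest neighbour of Lsamp, Gap43, is at 0.23.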

How the data were processed

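RNA of labelled knockout and control ureters was hybridised to 2 two-colour Agilent arrays. Per the submitters' processing notes, the scanner software was Agilent Feature Extraction 10.7.3.1. Its deposited files give, per the file headers, a spot intensity and a local background in each of 2 channels, and also processed signals. A deposited value table holds a signed fold, read here as a score, per probe and array (the sources used here do not describe its making). Over 24806 probes its log2 values had Pearson correlations of 0.982 and 0.985 with the processed signals, labelled knockout over control. Its column medians were 1, and 33.7% and 34.1% of its values were exactly 1, so its floor and centring are unknown.

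Mean intensities were corrected with normexp (offset 50) and normalized by loess within each array. For channel levels and summed marker intensities, mean log2 intensities were also quantile normalized between the arrays (limma Aquantile), which leaves the ratios unchanged. Without non-uniform spots (186 and 223), the 4 spots per probe were averaged, and ratios were turned to labelled knockout over control. The filter kept probes with over 0.5 of spots well above background in the same RNA on both arrays, which left 25934 of 39396. The brightest probe stood for a gene. Accessions were named through a RefSeq table of GRCm38.p6 (28303 probes; 11093 kept the name in the file), and promoter sequences are RefSeq's. The sources used here name no genome build for the array, and neighbours are given by order only.

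Log2 ratios of 20629 genes were tested with limma 3.58.1 in R 4.3.3 (lmFit, eBayes, Benjamini-Hochberg over all genes, adjusted p under 0.05), with 1 residual and 5.24 prior degrees of freedom. P-values thus rest mostly on a spread shared between genes, and measure only the spread between these samples. The procedure was tested on simulated data, where the share of unchanged genes among the calls was above the nominal level, so calls near the threshold are less certain than the adjusted p states.

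The genes and the lists were chosen with earlier results of these data known. Named genes were the 7 members with all probes assigned to them, and up to 4 called genes per list. Where none of a list passed, the 2 of largest change were named. Also named were the 3 nearest genes by Euclidean distance between pairs of log2 fold changes, and the 3 nearest tested genes on each side. For 1 named gene no value is reported here. Alternatives changed the background correction, signal column, normalization, source of values, filter, outlier spots, probe choice and variance model, or left out each replicate.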

Additional observations from a re-analysis of the deposited data

Results flagged for a closer look

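Values below had opposite signs in the male and the female pair. No difference was tested, since each sex had 1 pair, and the pairs also differ in their dye orientation. The second Negr1 probe was at -0.13 (male pair) and 0.017 (female pair), a difference of -0.15 (male minus female, log2). The list of P450 electron partners and regulators had medians of -0.017 in the male and 0.034 in the female pair, a difference of -0.051. Ethanol and aldehyde oxidation had medians of 0.11 in the male and -0.0033 in the female pair, a difference of 0.11. The oxidative stress response had medians of 0.062 in the male and -0.028 in the female pair, a difference of 0.0905. Urothelium markers had medians of -0.10 in the male and 0.024 in the female pair, a difference of -0.13.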

How the results depend on the processing

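Lsamp, Tmem229a and Cyp2e1 kept their direction in 40 of 40 alternative values, and the 4 relatives in 55 of 55. Counts of called genes moved by over 1.5 times from 385 higher and 374 lower under 3 alternatives. They were 249 and 214 with the processed signals, 114 and 128 with median centring, and 142 and 143 with the authors' deposited table. Leaving out Lsamp, 1 IgLON gene (Opcml) was called higher, 0 with each of these 3 alternatives, and 2 without background subtraction or without a filter on dim probes. Of other neural adhesion genes, 1 rose with the processed signals, 0 rose and 0 fell with median centring, and 0 rose and 1 fell with the authors' deposited table. Of hepatocyte markers, 1 fell with the authors' deposited table. Of ureteric mesenchyme markers, 1 rose and 1 fell, against 0 and 0 with these 3 alternatives, and 0 rose with outlier spots kept. Of 62 named genes other than the steep gains, 31 passed and 15 of those failed under at least 1 alternative. The directions that turned were all of genes near 0. B4galt4 was at 0.011 with median centring. 4932412D23Rik was at 0.011 with the median of pixels, 0.0052 with median centring, -0.061 without replicate 1 and 0.061 without replicate 2. Olfr538 was at -7.1e-05 with median centring, -0.059 without replicate 1 and 0.090 without replicate 2. Syce1 was at 0.28 without replicate 1 and -0.025 without replicate 2. No paired analysis was possible because each ratio is already taken within a pair on 1 array, with 2 arrays in all. The dimmer Cyp2e1 probe, Scgb1c1, Mup1 and Mup18 are limited by a control signal well above background on 1 of 2 arrays.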
